A study of Homo sapiens with 12 samples.

Results

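The enzymes described here act around diacylglycerol in K562 cells: the lipins LPIN1, LPIN2 and LPIN3, the acyltransferases DGAT1 and DGAT2, and the phospholipid enzymes CEPT1, CHPT1, PCYT1A, PCYT2 and CHKA. These 10 genes were taken by symbol from the 23153 genes that 3 deposited expression tables share, and each was listed in all 3 tables. K562 is an established human leukemia line with erythroid features. The study asked how cells respond to saturated fatty acid overload.

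The groups were as follows. Wild-type cells given palmitate coupled to albumin had 3 libraries, 1 in each of experiments 1, 2 and 3, as did untreated wild-type cells. Wild-type cells given palmitoleate had 1 library, in experiment 1, and wild-type cells given palmitate and palmitoleate together had 1, in experiment 2. GPAT4ko cells given palmitate had 1 library in experiment 2. RNF213kd cells had 1 library with palmitate and 1 without, both in experiment 3. Palmitate was used at 0.2 mM, for 20 h per the labels, whereas the legends of the experiment 2 and 3 tables give 16 h. Before library preparation the RNA of 3 biological replicates was combined, which leaves the spread between experiments as the only replicate error. How the knockout and knockdown were made, and whether the knockout is a single clone, is not given in the sources used here. A labelled library of untreated GPAT4ko cells had no values under its labelled name and was not analysed here.

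Values are FPKM, fragments scaled to transcript length and library size, normalised by the authors within each table. Summed FPKM ran between 612355 and 821188 over the 11 libraries. The read depth behind each value is unknown. AGPAT6, the former symbol of GPAT4 and the one the tables use, stood at 8.77 FPKM in GPAT4ko cells with palmitate against 20.0 FPKM in wild type with palmitate, so its transcript was still measured in the knockout. RNF213 stood at 1.54 FPKM in RNF213kd against 3.08 FPKM in wild type with palmitate, and at 1.39 FPKM in RNF213kd against 1.96 FPKM in wild type without it. All 8 K562 markers examined, among them GATA1 and the fetal globins, were expressed at 1.37 FPKM or more in every library. Of 16 markers of other cell types 13 stayed below 1 FPKM in every library, and the exceptions were CD3D (12.03 to 39.5 FPKM), EPCAM (13.6 to 62.3) and COL1A2 (0.025 to 2.89).

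Glycerolipid synthesis passes through phosphatidate, which lipins dephosphorylate to diacylglycerol. Diacylglycerol is then either acylated to triglyceride, the neutral lipid of lipid droplets, or joined to a choline or ethanolamine head group. Head groups are phosphorylated by kinases such as CHKA, activated with CTP by PCYT1A for choline and PCYT2 for ethanolamine, and transferred to diacylglycerol by CHPT1 and CEPT1. Triglyceride synthesis is known to shelter cells from saturated fatty acids.

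In untreated wild-type cells CHPT1, the cholinephosphotransferase, had the highest level of the 10 genes in each table, at 65.3, 87.8 and 72.4 FPKM in experiments 1 to 3. The ranges of PCYT2 (19.7 to 34.9 FPKM), PCYT1A (16.5 to 25.5), CEPT1 (17.2 to 22.2) and CHKA (11.5 to 20.0) overlapped across tables. Within each table PCYT2 stood above PCYT1A and PCYT1A above CHKA, whereas the place of CEPT1 varied. The ranges of LPIN2 (9.76 to 13.6 FPKM), LPIN1 (9.10 to 11.3) and DGAT1 (4.63 to 13.9) also overlapped. LPIN3 lay lower, at 1.14 to 2.95 FPKM, and DGAT2 lowest, at 0.530 to 0.925 FPKM. The tables were normalised separately, so levels set side by side across experiments also carry that difference.

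**Figure D1:**
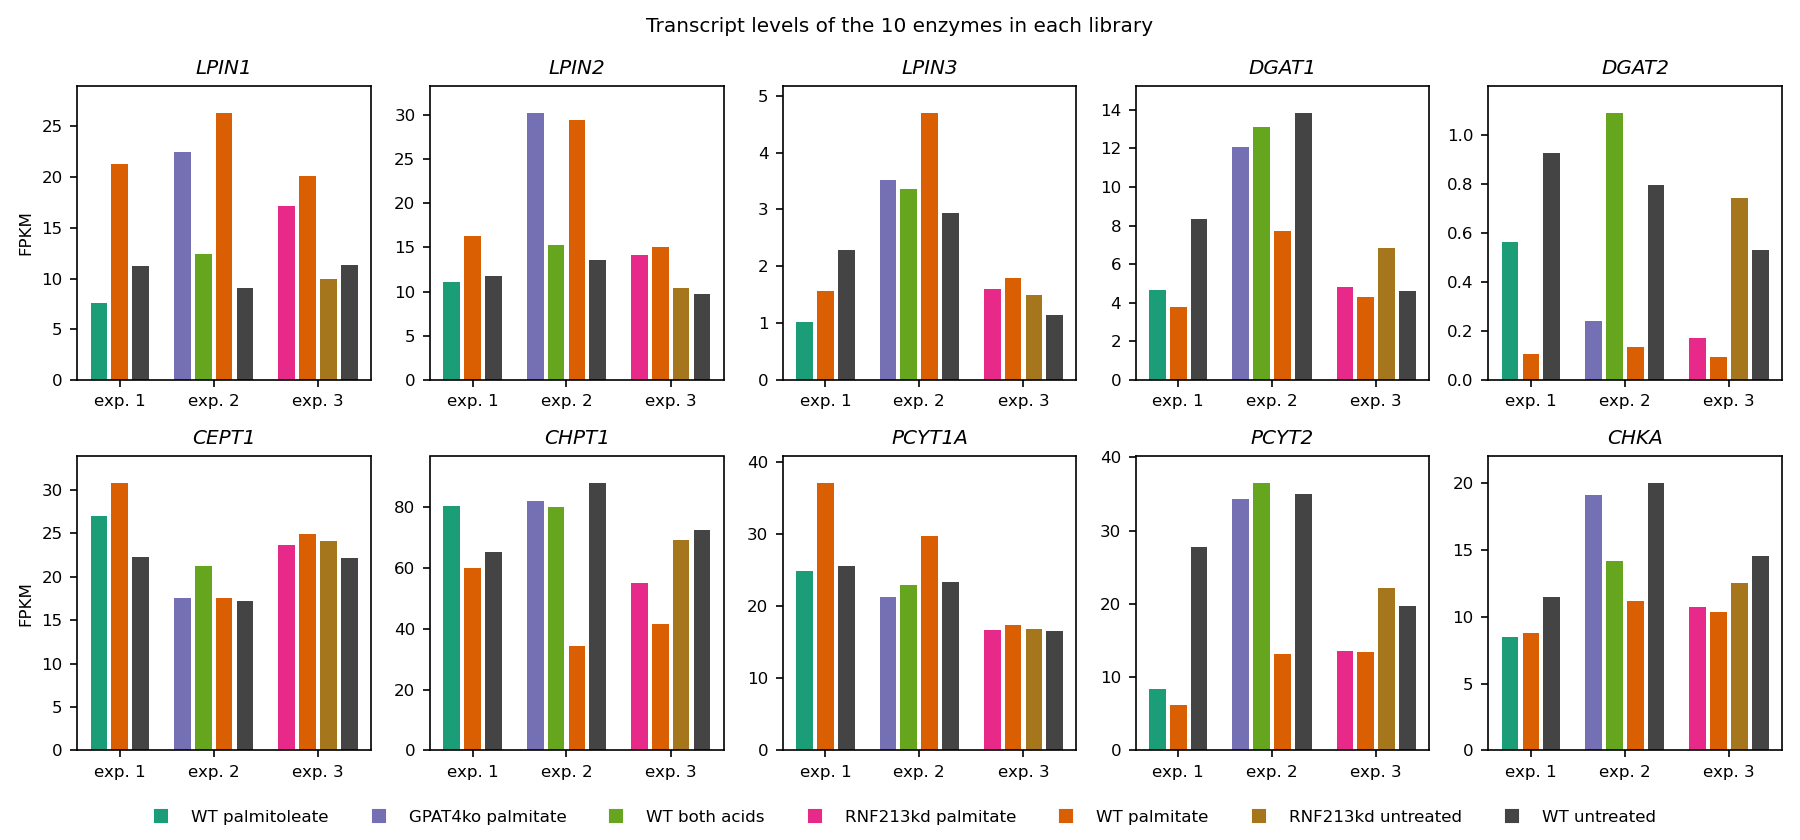
FPKM (y axis, linear, from 0) of each of the 10 genes in the 11 libraries, grouped by experiment (x axis); each bar is 1 library and the colours give genotype and treatment. LPIN1 stands at 20.1 to 26.4 FPKM in the wild-type palmitate libraries, against 9.10 to 11.3 FPKM in untreated ones, and DGAT2 at 0.0941 to 0.134 against 0.530 to 0.925 FPKM.

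Palmitate raised LPIN1, and it was the single enzyme of the 9 tested that passed the test over all genes. LPIN1 encodes a phosphatidate phosphatase that also acts as a transcriptional coactivator. It stood at 21.3, 26.4 and 20.1 FPKM with palmitate in experiments 1, 2 and 3, against 11.2, 9.10 and 11.3 FPKM untreated. The palmitate libraries all lay above the untreated ones, by 1.90-fold, 2.90-fold and 1.78-fold within their own tables. On the log2(FPKM + 1) scale LPIN1 rose by 1.03 ± 0.23 (mean ± SE, n = 3 experiments, limma adjusted p = 0.0465). The call was narrow: the adjusted p was 0.0644, 0.258 and 0.179 with experiment 1, 2 or 3 left out in turn, and 0.0593 with no replicate block.

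LPIN2 encodes a related phosphatidate phosphatase. It stood at 16.3, 29.4 and 15.0 FPKM with palmitate, against 11.8, 13.6 and 9.76 FPKM untreated. The groups did not overlap, and the mean log2 ratio was 0.69 ± 0.22 (n = 3 experiments), but limma's adjusted p of 0.0951 did not pass. LPIN3, the least abundant lipin, stood at 1.56, 4.70 and 1.80 FPKM with palmitate, against 2.29, 2.95 and 1.14 FPKM untreated. It was lower with palmitate in experiment 1 and higher in experiments 2 and 3, and its mean log2 ratio was 0.19 ± 0.23 (limma adjusted p = 0.613). With the trend of the ratios along GC content removed, LPIN3 (58.6% GC) stood at 0.29, 0.56 and 0.28 in experiments 1 to 3, with a mean of 0.38 ± 0.15 (adjusted p = 0.108). Without experiment 1 its mean was 0.46, and without experiment 2 it was 0.01. The summed FPKM of the 3 lipins was 39.2, 60.5 and 36.9 with palmitate, against 25.3, 25.6 and 22.2 untreated. LPIN1 made up 54.4%, 43.6% and 54.4% of that sum with palmitate and 44.4%, 35.5% and 50.9% of it untreated.

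Of the acyltransferases that finish triglyceride, DGAT1 did not pass the test and DGAT2 was too low to enter it. DGAT1 and DGAT2 are unrelated proteins that catalyse the same step. DGAT1 stood at 3.78, 7.73 and 4.28 FPKM with palmitate, against 8.33, 13.9 and 4.63 FPKM untreated, and the groups overlapped across tables. Its mean log2 ratio was -0.61 ± 0.25 (n = 3 experiments, limma adjusted p = 0.151), with ratios of -0.96, -0.77 and -0.09 in experiments 1 to 3. DGAT2 stood at 0.106, 0.134 and 0.0941 FPKM with palmitate, against 0.925, 0.793 and 0.530 FPKM untreated. Each palmitate library lay below each untreated one, with 0.115, 0.169 and 0.178 of the untreated FPKM within the tables. A mean of 0.490 FPKM kept DGAT2 out of the test, whose lower limit was a mean of 1 FPKM. Its mean log2(FPKM + 1) ratio of -0.65 understates the change of so low a gene. In an alternative chosen after the data were seen, with a minimum mean of 0.1 FPKM and a pseudocount of 0.1 FPKM, DGAT2 was at -1.98 (limma adjusted p = 0.0291) and LPIN1 missed the threshold (adjusted p = 0.0521). With no filter and a pseudocount of 1 FPKM, DGAT2 did not pass (adjusted p = 0.234). DGAT2 was thus low with palmitate in all 3 experiments, at levels where few reads can be expected. The palmitate ratios of experiment 1 followed GC content, and with that trend removed DGAT1 (63.1% GC) stood at -0.11 in experiment 1 and at a mean of -0.31 ± 0.16.

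Of the phospholipid enzymes, PCYT2 had the largest ratio. PCYT2 makes CDP-ethanolamine, the rate-limiting step of this route to phosphatidylethanolamine. It stood at 6.17, 13.2 and 13.4 FPKM with palmitate, against 27.7, 34.9 and 19.7 FPKM untreated. The palmitate libraries lay below the untreated ones in all 3 experiments, with 0.223, 0.377 and 0.678 of the untreated FPKM. The mean log2 ratio was -1.29 ± 0.31 (n = 3 experiments), with a 95% interval of -2.06 to -0.52 and a limma adjusted p of 0.0552. In experiment 1 the palmitate ratio of all genes followed the GC content of their transcripts (Spearman's rho = -0.63 across 9637 genes), against -0.02 in experiment 2 and 0.15 in experiment 3. PCYT2 has the highest GC content of the 10 genes, 64.4%. With the GC trend removed PCYT2 stood at -1.10, -1.18 and -0.61 in experiments 1 to 3, and its mean ratio of -0.97 ± 0.16 passed (limma adjusted p = 0.02). PCYT2 also passed when small RNA and SNAR genes were dropped from the fit (limma adjusted p = 0.00737) and with ratios centred on their median (0.0375). Those 3 fits also called more genes of all kinds. They called 2710 of 9637, 2439 of 10873 and 1600 of 11075, against 1155 of 11075 without these changes. PCYT2 did not pass with no filter (limma adjusted p = 0.29) or with no replicate block (0.103). With experiment 1, 2 or 3 left out its adjusted p was 0.087, 0.0278 and 0.141. The smallest adjusted p over all genes in those limma fits was 0.0521, 2.78e-138 and 0.131, so the fits are not alike.

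CHPT1 transfers phosphocholine from CDP-choline to diacylglycerol. It stood at 59.8, 34.3 and 41.4 FPKM with palmitate, against 65.3, 87.8 and 72.4 FPKM untreated. All palmitate libraries lay below all untreated ones, narrowly in experiment 1. The mean log2 ratio was -0.75 ± 0.27 (n = 3 experiments, limma adjusted p = 0.125). It was -1.06 without experiment 1 (adjusted p = 0.0643) and -0.46 without experiment 2 (adjusted p = 0.572). CHPT1 transcripts have the lowest GC content of the 10 genes, 34.4%. With the GC trend removed the ratios were -0.72, -1.30 and -0.71, and the mean of -0.91 ± 0.17 passed (limma adjusted p = 0.0252), as did that of LPIN2 (0.73 ± 0.16, adjusted p = 0.0303). LPIN1 kept its call under that correction, at 1.04 ± 0.17 (adjusted p = 0.0199).

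CEPT1, which accepts both CDP-choline and CDP-ethanolamine, stood at 30.8, 17.5 and 25.0 FPKM with palmitate, against 22.2, 17.2 and 22.2 FPKM untreated. PCYT1A, which makes CDP-choline and is rate limiting for phosphatidylcholine, stood at 37, 29.7 and 17.4 FPKM with palmitate, against 25.5, 23.4 and 16.5 FPKM untreated. Both were higher with palmitate within each table, with groups that overlapped across tables. For CEPT1 (34.9% GC) this did not hold with the GC trend removed, where it stood at -0.13 in experiment 1 and at a mean of 0.06 ± 0.14. Their mean log2 ratios were 0.21 ± 0.20 for CEPT1 and 0.31 ± 0.20 for PCYT1A (limma adjusted p = 0.502 and 0.338). CHKA, a choline kinase, stood at 8.78, 11.1 and 10.4 FPKM with palmitate, against 11.5, 20.0 and 14.5 FPKM untreated. The CHKA groups did not overlap, and the mean log2 ratio of -0.53 ± 0.21 did not pass (limma adjusted p = 0.141). With the GC trend removed CHKA stood at 0 in experiment 1.

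**Figure D2:**
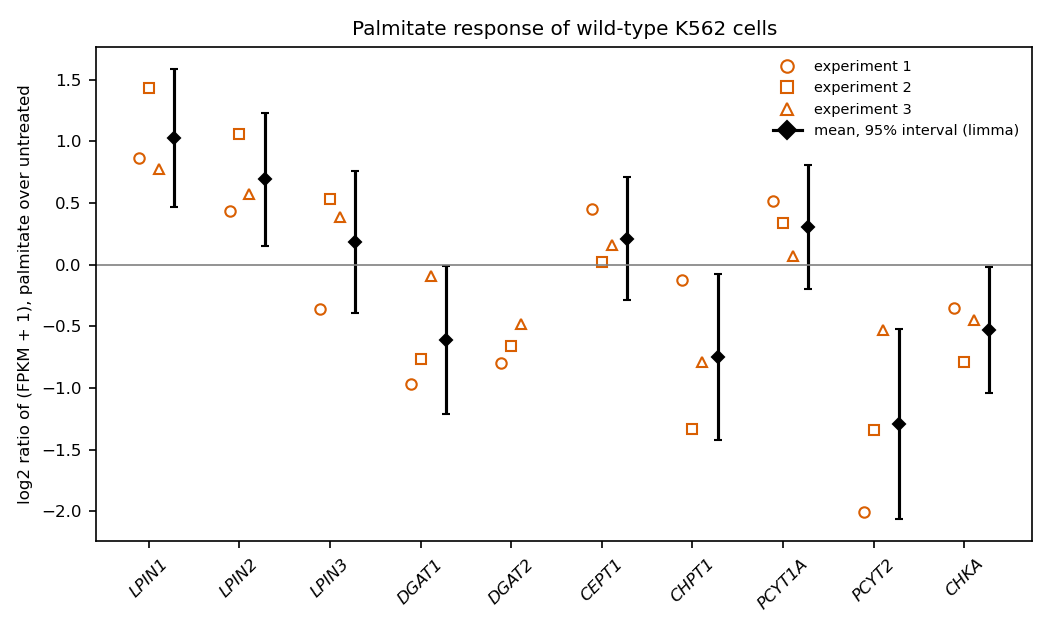
Log2 ratio of (FPKM + 1) of palmitate over untreated wild type for each gene (x axis); open symbols are the 3 experiments, and the black diamond with its bar is the mean with its 95% limma interval. LPIN1 lies at 1.03 and PCYT2 at -1.29, and DGAT2 has no interval because it was below the level needed for the test.

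Among the 9 tested enzymes limma called 1 higher and 0 lower, where 6.59% of the 11075 tested genes were called higher and 3.84% lower. At an unadjusted p under 0.05 there were 6 of the 9, against 32.6% of all tested genes. The palmitate and untreated libraries did not overlap for 5 of the 9, against 29.7% of all tested genes, and 8 of the 9 moved the same way in all 3 experiments, against 55.4%. The median log2 ratio was 0.19 over the 9 and -0.06 over all tested genes. The enzymes were chosen with earlier results of these data known, so these counts and shares are descriptions. The enzymes split in direction: LPIN1, LPIN2, CEPT1 and PCYT1A were higher in each experiment, and DGAT1, CHPT1, PCYT2 and CHKA were lower in each. With the GC trend removed this split did not hold in experiment 1 for CEPT1 (-0.13) and CHKA (0). In that fit limma called LPIN1 and LPIN2 higher and CHPT1 and PCYT2 lower, where 14.5% of genes were called higher and 13.6% lower. In RNA from whole cultures, less RNA per cell and fewer cells that express a gene cannot be told apart.

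Related enzymes of the same step (CHPT1 and CEPT1) or of parallel steps (PCYT2 and PCYT1A) can be set against each other within a library. There, scaling between libraries has no part. The FPKM of CHPT1 was 1.95, 1.96 and 1.66 times that of CEPT1 with palmitate in experiments 1 to 3, against 2.94, 5.10 and 3.27 times untreated. The FPKM of PCYT2 was 0.167, 0.443 and 0.770 times that of PCYT1A with palmitate, against 1.09, 1.5 and 1.20 times untreated. Untreated cells thus held more PCYT2 than PCYT1A message in each experiment, and palmitate-treated cells held less. PCYT2 and PCYT1A transcripts differ in GC content (64.4% and 46.9%), so the ratio of experiment 1 also moves with the GC trend.

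**Figure D3:**
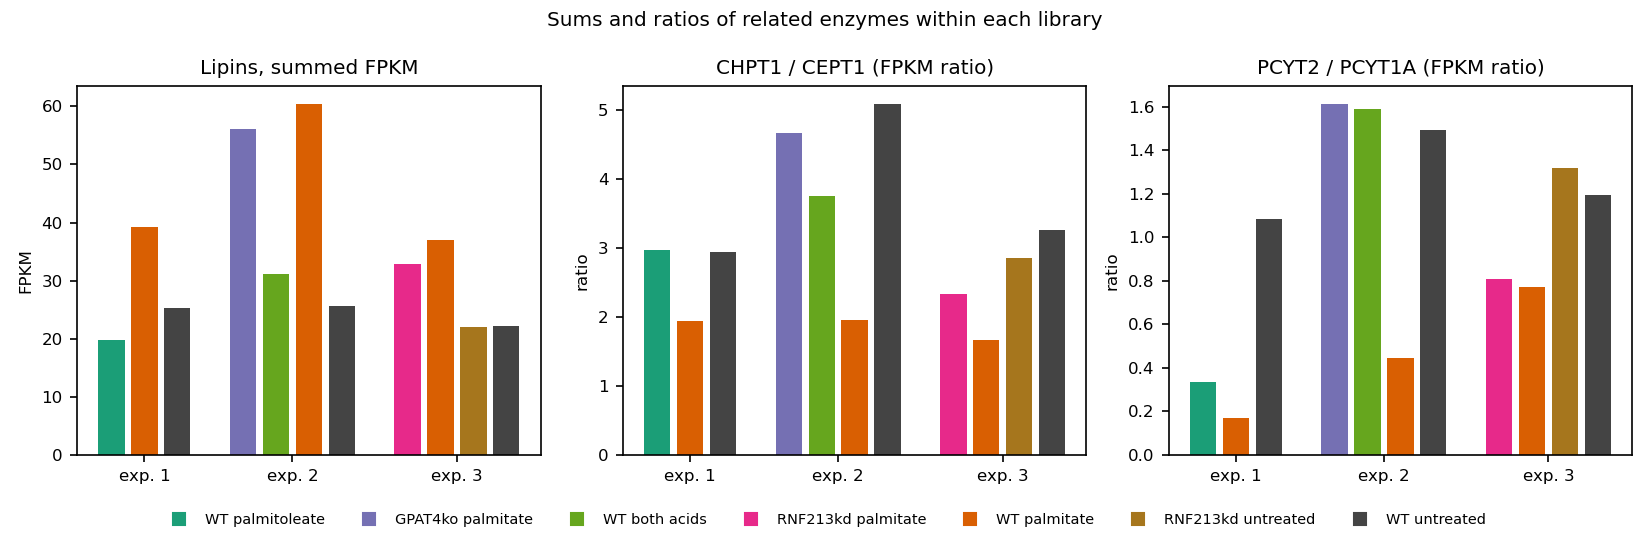
Summed FPKM of the 3 lipins, and the FPKM ratios CHPT1 over CEPT1 and PCYT2 over PCYT1A (y axes, linear, from 0), in each of the 11 libraries grouped by experiment; each bar is 1 library. In wild type the PCYT2 over PCYT1A ratio is 0.167 to 0.770 with palmitate, against 1.09 to 1.5 untreated.

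The promoters of the 3 enzymes with the largest mean ratios are shown to compare their sequence. Each is the 250 bases before the RefSeq start in GRCh38.p14, on the gene's own strand, 5′ to 3′. Capitals mark CCAAT boxes (CCAAT or its complement ATTGG) and GC boxes (GGGCGG or its complement CCGCCC).
LPIN1, chr2:11746382-11746631, plus strand: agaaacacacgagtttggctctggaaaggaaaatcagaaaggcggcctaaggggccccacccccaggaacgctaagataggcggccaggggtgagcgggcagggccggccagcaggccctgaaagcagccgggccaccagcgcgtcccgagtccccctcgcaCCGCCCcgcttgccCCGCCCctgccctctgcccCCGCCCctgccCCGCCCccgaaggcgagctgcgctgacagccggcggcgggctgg
PCYT2, chr17:81911400-81911649, minus strand: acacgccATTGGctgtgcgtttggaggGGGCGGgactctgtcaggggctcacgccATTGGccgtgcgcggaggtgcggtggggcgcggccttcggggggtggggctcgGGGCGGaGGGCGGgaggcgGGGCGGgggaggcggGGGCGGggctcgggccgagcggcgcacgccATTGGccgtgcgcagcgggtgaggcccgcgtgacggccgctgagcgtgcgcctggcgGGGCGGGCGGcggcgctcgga
CHPT1, chr12:101697390-101697639, plus strand: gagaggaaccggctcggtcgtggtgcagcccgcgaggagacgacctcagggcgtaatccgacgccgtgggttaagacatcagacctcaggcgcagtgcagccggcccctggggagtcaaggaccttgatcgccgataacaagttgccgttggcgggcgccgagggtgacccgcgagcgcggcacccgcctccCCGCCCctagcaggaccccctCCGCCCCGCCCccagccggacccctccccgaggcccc
The PCYT2 window holds 3 CCAAT boxes, each as ATTGG, and 7 GC boxes, of which the last 2 overlap. The LPIN1 window holds 4 GC boxes and the CHPT1 window 3, of which the last 2 overlap, and neither holds a CCAAT box. Of 27305 promoter windows of that length 33.0% hold a CCAAT box and 3.09% hold 3 or more. A GC box is held by 42.3%, and 3 or more by 13.99%. None of the 3 windows holds the E-box CACGTG (6.5% of all windows), the cyclic AMP response element TGACGTCA (1.8%), the core TGATGCAA to which C/EBP and ATF factors bind (0.8%) or the GATA site AGATAA (9.4%), on either strand. Of the 10 genes 6 had a window in the RefSeq table. Those of LPIN2, CEPT1 and PCYT1A, not printed, hold no CCAAT box and no GC box.

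Several of these genes share a locus entry with another gene in the hg19 tables, and whether the authors counted by strand is not given in the sources used here. LPIN1 (chr2:11886739-11967533), DGAT2 (chr11:75479777-75512581), PCYT1A (chr3:195965252-196014584) and CHKA (chr11:67820325-67888858) have entries of their own. PCYT2 (chr17:79860071-79869340) is listed with NPB, which averaged 1.56 FPKM, and CHPT1 (chr12:102091416-102133250) with SYCP3, which averaged 0.178 FPKM. NPB had palmitate log2 ratios of -1.445, -0.559 and -0.129, of the same sign as those of PCYT2 in each experiment. LPIN2 (chr18:2916991-3011945) is listed with LOC727896 at 0.108 FPKM, and LPIN3 (chr20:39969559-39995498) with EMILIN3 at 0.439 FPKM. The partners of DGAT1 (chr8:145515269-145550567) and CEPT1 (chr1:111659953-111727724) were as abundant as they or more so. HSF1 averaged 26.7 FPKM and had palmitate log2 ratios of -1.35, 0.41 and 0.43, unlike those of DGAT1 in experiments 2 and 3. DRAM2 averaged 24.2 FPKM and had ratios of 0.65, 0.52 and 0.68, against 0.45, 0.02 and 0.16 for CEPT1.

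Palmitoleate, the monounsaturated acid with the chain length of palmitate, was given alone in experiment 1. Its dose is not given in the sources used here, so the acids could not be compared at matched doses, and 1 library of each was available. LPIN1 stood at 7.56 FPKM with palmitoleate, 21.3 FPKM with palmitate and 11.2 FPKM untreated. LPIN1 thus had its lowest level of experiment 1 with palmitoleate. Against untreated its log2 ratio was -0.51, with a 95% interval of -1.475 to 0.452 that includes 0. Palmitoleate over palmitate came to -1.38 on the log2 scale for LPIN1, with a 95% interval of -2.34 to -0.42. That interval, like the others given for single libraries, borrows the spread of the wild-type palmitate ratios between experiments. It assumes that single libraries vary alike. None of these intervals is adjusted for the number of genes tested, so an interval that excludes 0 is not a call.

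The other enzymes had palmitoleate levels between, near or beyond those of palmitate and untreated cells. PCYT2 stood at 8.32 FPKM with palmitoleate, 6.17 FPKM with palmitate and 27.7 FPKM untreated. PCYT2 was thus low with either acid in that experiment, at -1.62 on the log2 scale for palmitoleate over untreated (interval -2.96 to -0.29), or -0.82 with the GC trend removed. That trend was steep in this comparison (rho = -0.76). DGAT1 stood at 4.67, 3.78 and 8.33 FPKM with palmitoleate, with palmitate and untreated, and its log2 ratio of palmitoleate to untreated was -0.72, or 0.05 with the trend removed. CHPT1 stood at 80.2 FPKM with palmitoleate, 59.8 FPKM with palmitate and 65.3 FPKM untreated. Its log2 value for palmitoleate over untreated was 0.29, which turned to -0.16 with the trend removed, and that of CEPT1 turned to -0.17, against 0.27 before. DGAT2 stood at 0.561, 0.106 and 0.925 FPKM in the same order. Palmitoleate over palmitate came to 0.38 on the log2 scale for PCYT2 (interval -0.96 to 1.71), -0.04 for CHKA (-0.92 to 0.84) and 0.42 for CHPT1 (-0.75 to 1.58). Those intervals are too wide to show that the acids act alike on these genes. At least 2-fold against palmitate stood 1 of the 9 tested enzymes, LPIN1, where 5.91% of tested genes did so. Against untreated 1 of the 9 did so, PCYT2, where 7.21% of tested genes did. Both counts are on the log2(FPKM + 1) scale, which shrinks the ratios of low genes. LPIN3 stood at 1.02 FPKM with palmitoleate against 2.29 FPKM untreated, a log2 ratio of -0.705 on that scale. It was -1.097 with a pseudocount of 0.1 FPKM, beyond 2-fold, and -0.098 with the GC trend removed.

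In experiment 2 palmitoleate was added to palmitate at 0.2 mM of each. On the log2 scale 7 of the 9 tested enzymes then stood closer to the untreated library than to the palmitate library, a share near that of all tested genes (75.7%). LPIN1 stood at 12.4 FPKM with both acids, against 26.4 FPKM with palmitate and 9.10 FPKM untreated. PCYT2 stood at 36.5 FPKM with both acids, against 13.2 FPKM with palmitate and 34.9 FPKM untreated. CHPT1 stood at 80.0 FPKM with both acids, against 34.3 FPKM with palmitate and 87.8 FPKM untreated. For each of these 3 genes the library with both acids thus lay near the untreated one.

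Both acids over palmitate gave log2 ratios of -1.03 for LPIN1 (interval -1.99 to -0.06), 1.40 for PCYT2 (0.07 to 2.74) and 1.20 for CHPT1 (0.03 to 2.36). LPIN2 stood at 15.3 FPKM with both acids against 29.4 FPKM with palmitate, a ratio of -0.90 (-1.84 to 0.04). DGAT2 stood at 1.09 FPKM with both acids, against 0.134 FPKM with palmitate and 0.793 FPKM untreated, which is its highest level in the 11 libraries. Of the 9 tested enzymes 3 differed at least 2-fold from palmitate (19.4% of all tested genes did): PCYT2 and CHPT1 stood higher and LPIN1 lower. Against untreated 0 of the 9 did so (background 1.7%). No enzyme passed limma over all genes in either comparison, where the smallest adjusted p among them was 0.262 against palmitate and 1 against untreated. The 2 comparisons share the library with both acids, and the comparison with palmitate shares its palmitate library with the experiment 2 ratio given above.

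**Figure D4:**
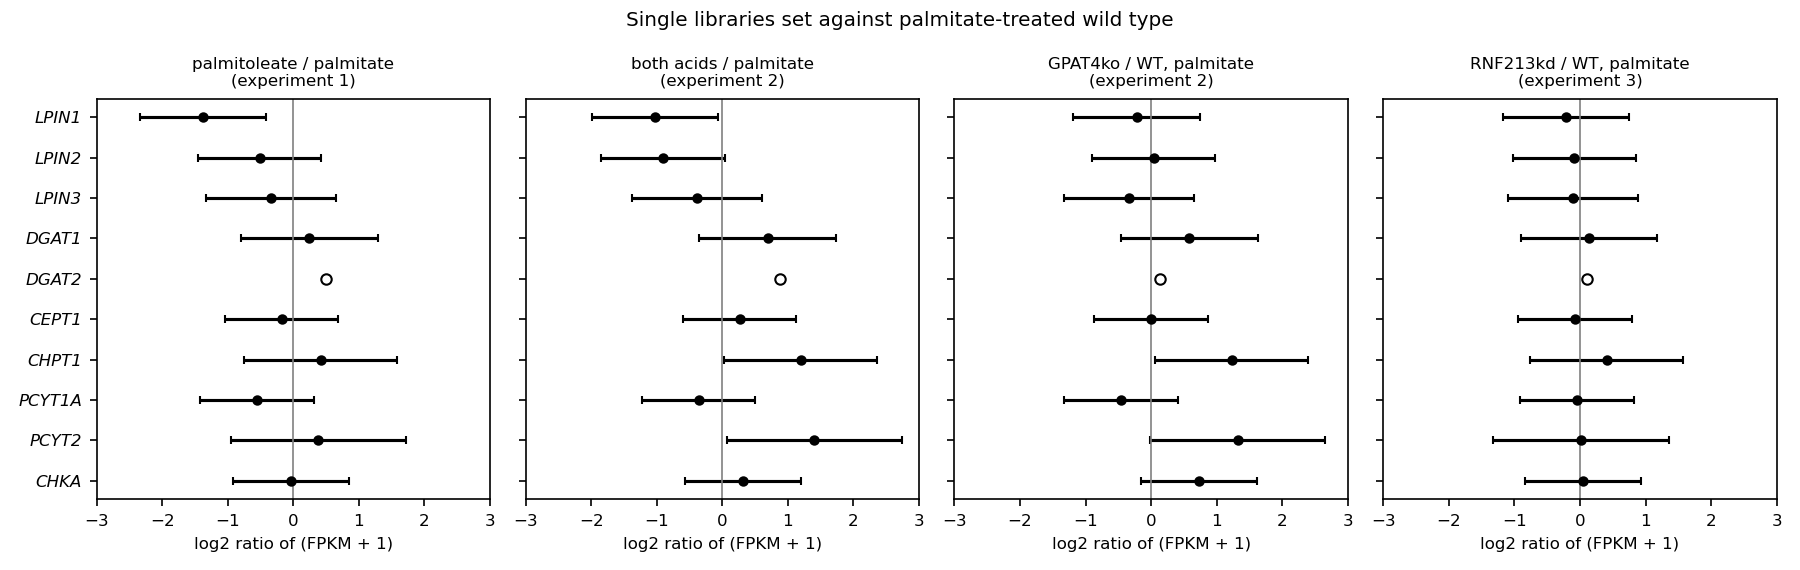
Log2 ratio of (FPKM + 1) (x axes) of each gene, in a library set against the wild-type palmitate library of the same experiment; each point is 1 pair of libraries, bars are 95% intervals with borrowed spread, and open points (DGAT2) have none. CHPT1 lies at 1.20 with both acids and at 1.23 in GPAT4ko cells, and LPIN1 lies at -1.38 with palmitoleate.

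GPAT4 is a glycerol-3-phosphate acyltransferase of the endoplasmic reticulum and acts upstream of the lipins. In GPAT4ko cells with palmitate LPIN1 and LPIN2 stood nearer to the palmitate than to the untreated wild-type library of that experiment. LPIN1 was at 22.5 FPKM in GPAT4ko against 26.4 FPKM in wild type, and LPIN2 at 30.2 FPKM in GPAT4ko against 29.4 FPKM in wild type. The log2 ratios were -0.22 for LPIN1 (interval -1.19 to 0.74) and 0.04 for LPIN2 (-0.90 to 0.98), which do not show that the levels are alike. LPIN3 was at 3.51 FPKM in GPAT4ko, against 4.70 FPKM in wild type with palmitate and 2.95 FPKM in untreated wild type.

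CHPT1 and PCYT2 stood higher in GPAT4ko cells. CHPT1 was at 81.8 FPKM in GPAT4ko against 34.3 FPKM in wild type with palmitate, and untreated wild type was at 87.8 FPKM. PCYT2 was at 34.4 FPKM in GPAT4ko against 13.2 FPKM in wild type with palmitate, and untreated wild type was at 34.9 FPKM. The log2 ratios were 1.23 for CHPT1 (0.06 to 2.40) and 1.32 for PCYT2 (-0.02 to 2.66), against the same palmitate library that the mixture was set against. CHKA stood at 19.1 FPKM in GPAT4ko against 11.1 FPKM in wild type with palmitate, a ratio of 0.73 (-0.15 to 1.61). The FPKM of PCYT2 was 1.62 times that of PCYT1A in GPAT4ko, against 0.443 times in wild type with palmitate. DGAT2 stayed low, at 0.242 FPKM in GPAT4ko against 0.134 FPKM in wild type with palmitate. CHPT1 and PCYT2, 2 of the 9 tested enzymes, stood at least 2-fold apart from wild type (15.1% of all tested genes did), and the smallest limma adjusted p among the 9 was 0.373. With no untreated GPAT4ko library in use, a difference present without palmitate cannot be told apart from a different response to it.

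RNF213 is a large ubiquitin ligase linked to lipid droplets. With palmitate, LPIN1 stood at 17.1 FPKM in RNF213kd against 20.1 FPKM in wild type, and PCYT2 at 13.5 FPKM in RNF213kd against 13.4 FPKM in wild type. CHPT1 stood at 55.1 FPKM in RNF213kd against 41.4 FPKM in wild type. Without palmitate, LPIN1 stood at 9.96 FPKM in RNF213kd against 11.3 FPKM in wild type, and DGAT1 at 6.85 FPKM in RNF213kd against 4.63 FPKM in wild type. The knockdown log2 ratios ranged from -0.22 for LPIN1 to 0.40 for CHPT1 with palmitate, and from -0.20 for CHKA to 0.48 for DGAT1 without. Of the 9 tested enzymes 0 reached 2-fold with palmitate (background 1.35%) and 0 without it (background 0.84%). The untreated comparison followed GC content across genes (rho = 0.63), and DGAT1, with 63.1% GC, stood at 0.21 there once the trend was removed.

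Within RNF213kd cells the palmitate response was 0.73 for LPIN1 on the log2 scale, against 0.78 in wild type of the same experiment. It was -0.67 against -0.53 for PCYT2 and -0.32 against -0.79 for CHPT1. Knockdown minus wild type ranged from -0.34 for DGAT1 to 0.47 for CHPT1, whose interval was -1.18 to 2.12. None of the 9 differences passed (limma adjusted p = 1 for each; 0.163% of tested genes passed). DGAT2 stood at 0.172 FPKM in RNF213kd with palmitate and at 0.741 FPKM in RNF213kd without it. Within RNF213kd cells 0 of the 9 tested enzymes differed at least 2-fold between palmitate and untreated on the log2(FPKM + 1) scale (background 3.45%).

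Genes of adjoining reactions were taken as 6 lists of 41 genes, of which 25 were abundant enough to test. Palmitate raised 1 of the 25 and lowered 0, where 6.59% of all tested genes were called higher and 3.84% lower, and the median log2 ratio was -0.20 against -0.06 over all tested genes. No gene of the lists was called with no filter, with no replicate block, or without experiment 1 or 3. The gene was EPT1, the ethanolaminephosphotransferase that uses the product of PCYT2. It stood at 50.9, 27.2 and 24.7 FPKM with palmitate, against 14.4, 12.5 and 14.7 FPKM untreated. EPT1 rose by 1.18 ± 0.26 on the log2 scale (n = 3 experiments, limma adjusted p = 0.0471). Its limma adjusted p was 0.0643, 0.0331 and 0.153 with experiment 1, 2 or 3 left out, and 0.087 with no replicate block. The fit without experiment 2 is unlike the others, as given above for PCYT2. The palmitate ratio was thus above 0 for EPT1 and below 0 for PCYT2, which acts just before it.

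In the choline and ethanolamine arm 1 of 5 tested genes rose. SLC44A2, a choline transporter, was at -0.91 (limma adjusted p = 0.0514), the choline kinase CHKB at 0.30 and the methyltransferase PEMT at -0.20. SLC44A2 was called lower with centred ratios, no intensity trend, a minimum mean of 5 FPKM or small RNA genes dropped. Of 3 genes of phosphatidylserine synthesis and decarboxylation none passed, and PTDSS1, a phosphatidylserine synthase, was at -0.67 (adjusted p = 0.0749), its relative PTDSS2 at -0.34 and the decarboxylase PISD at -0.33. None passed among 6 tested genes of the CDP-diacylglycerol branch, where the cardiolipin synthase CRLS1 was at -0.53, PTPMT1 at -0.43, CDS2 at 0.27 and CDIPT at 0.23. The same held for 8 tested phosphatidate phosphatases and diacylglycerol kinases (median -0.31), where DGKZ was at -0.65, AGK at -0.52, PPAP2C at -0.37 and PPAP2A at -0.33. PPAP2B, of the same list, averaged 0.658 FPKM and was too low to enter the test. It stood at 1.82, 3.26 and 0.878 FPKM with palmitate, against 0.116, 0.249 and 0.104 FPKM untreated. With a minimum mean and pseudocount of 0.1 FPKM, chosen after the data were seen, limma called PPAP2B higher. EPT1 missed the threshold there (limma adjusted p = 0.0529). Of the lipin regulators, the phosphatase catalytic subunit CTDNEP1 was at -0.47 and its partner CNEP1R1 at 0.42, and neither passed. The single neutral lipid acyltransferase tested, SOAT1, was at -0.07. With the GC trend removed, limma called 4 of 22 genes with a GC value lower (SLC44A2, PTDSS1, CRLS1 and AGK) and 0 higher, where 13.6% of all genes in that fit were called lower and 14.5% higher. EPT1 had no GC value.

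**Figure D5:**
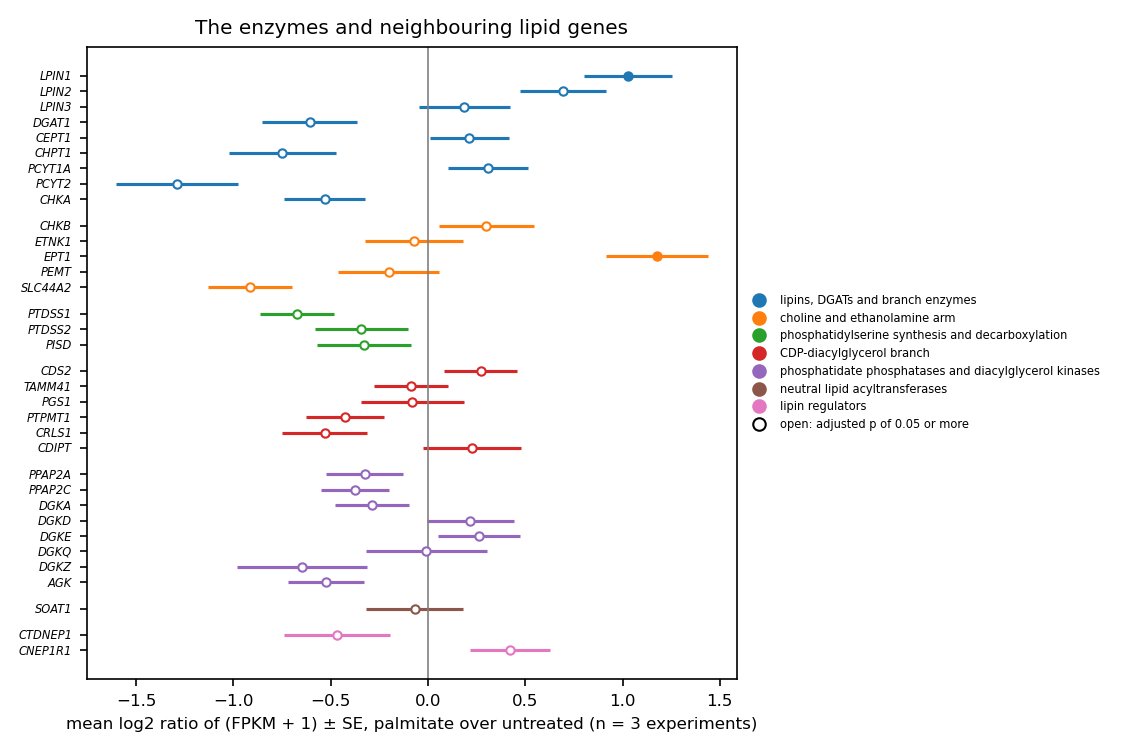
Mean log2 ratio of (FPKM + 1) of palmitate over untreated wild type (n = 3 experiments) for each tested gene of the 9 enzymes and of the 6 lists of adjoining reactions; each point is 1 gene, bars are SE, colours give the list and filled points passed limma. LPIN1 at 1.03 and EPT1 at 1.18 are the 2 that passed.

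The closest patterns over the 11 libraries, centred within each table, were sought among 8076 genes averaging 5 FPKM or more. LPIN1 was most like HSD17B7 (Pearson's r = 0.984), an enzyme of cholesterol synthesis, followed by HJURP (0.971) and MANF (0.97). PCYT2 was most like ABCA7, CDAN1 and MUM1 (0.986 each). CHPT1 was most like PPA1 (0.995), PRIM1 (0.994) and HSF2 (0.989). Among the enzymes themselves r was 0.929 for LPIN1 with LPIN2 and 0.948 for DGAT1 with PCYT2. These libraries share treatments, and DGAT1 and PCYT2 share a high GC content, so the values are descriptions.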

How the data were processed

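RNA sequencing of K562 cells was reported as FPKM, made by the authors with TopHat2 and Cuffdiff on hg19, per the submitters' processing notes; versions are not given in the sources used here. Each of 3 deposited tables holds 1 experiment and was normalised separately. RNA of 3 biological replicates was pooled per library, per the labels. Of 12 labelled libraries 11 were used, and 2 libraries in the tables that the labels do not name were not used. Depth is unknown, so no counting intervals are given.

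Palmitate over untreated ratios of log2(FPKM + 1) within each experiment were tested with limma 3.58.1 in R 4.3.3 with an intensity trend; 11075 genes averaging 1 FPKM or more entered, and a call needed a Benjamini-Hochberg adjusted p under 0.05. The experiment is thus a replicate block. It came from the separate tables, and libraries of 1 experiment deviated together (correlations 0.458, 0.634 and 0.696). Single-library ratios borrow that estimate (3.86 prior and 2 residual degrees of freedom), and 2-fold was their limit. The fit was tested on simulated data with noise drawn independently for each library and with no GC trend, so such trends were not covered. The GC trend was removed by a lowess curve (span 0.3) over the 9637 genes with a value (87%), in gene models that may not be those the authors used. Promoters came from RefSeq. The 10 enzymes and the lists of adjoining genes and markers were chosen with earlier results of these data known. Named were the 10 enzymes, the largest 4 tested ratios of each list, and the 3 closest patterns of the 3 tested enzymes with the largest ratio. PPAP2B was named after the data were seen. Alternatives were other pseudocounts, filters, centring and trends, no block, leaving out experiments, small RNA genes or the GC trend.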

Additional observations from a re-analysis of the deposited data

How the results depend on the processing

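All 9 tested enzymes kept the direction of their palmitate ratio under every alternative run (12 for LPIN3, 13 for the others). LPIN1 ranged from 0.82 to 1.15 and passed in 7 of the 13, and PCYT2 ranged from -1.67 to -0.94 and passed in 5. The number of genes called, 1155, was 0 with no filter (lowest limma adjusted p 0.234, with 3905 below 0.05 unadjusted), 2439 once small RNA and SNAR genes were dropped, 2710 after GC correction and 314 with no replicate block. It ranged from 0 to 890 with 1 experiment left out. It was 0 without experiment 1 (smallest limma adjusted p 0.0521, 4474 unadjusted), 890 without experiment 2 (2.78e-138, 2048 unadjusted) and 0 without experiment 3 (0.131, 2330 unadjusted). The number of enzymes called, 1 of 9 (1155 of 11075 genes), was 0 with no filter. It was also 0 with no replicate block (LPIN1 limma adjusted p = 0.0593). It was 2 with centred ratios (1600 of 11075 genes) and 2 once small RNA and SNAR genes were dropped (2439 of 10873 genes). After GC correction it was 4 (2710 of 9637 genes), and with 1 experiment left out it ranged from 0 to 1. Leaving out small RNA genes and removing the GC trend together, chosen after seeing the data, gave 3176 of 9469 genes and 4 of 9 enzymes. With a pseudocount of 0.1 FPKM the number of genes at least 2-fold was 1284 in place of 798 for palmitoleate against untreated, 338 in place of 188 for both acids against untreated, 191 in place of 93 for RNF213kd against wild type untreated, 275 in place of 150 with palmitate, and 636 in place of 382 for palmitate within RNF213kd. With the GC trend removed the first was 161. Without small RNA and SNAR genes it was 116 for both acids against untreated, 16 for RNF213kd untreated and 83 with palmitate. The cause of these shifts was not tested. The unknown read depth limits DGAT2 and LPIN3 most, as the least abundant of the 10.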
